A study of Mus musculus with 72 samples.

Results

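The 10 genes of the MHC class I antigen presentation route were followed in mouse liver: B2m, H2-K1, H2-D1, Tap1, Tap2, Tapbp, Psmb8, Psmb9, Psmb10 and Nlrc5. They were taken by symbol, as the rows of the count table whose Ensembl identifier carries that symbol. No cutoff on a measured value was applied, but the list was drawn up with earlier results of these data known. All 10 were found among the 55573 genes of the table, and all 10 passed the filter on low counts in every comparison. Livers came from adult male C57BL/6 mice (C57BL/6J in the study's methods) under a 12:12 light/dark cycle at 6 zeitgeber times (ZT, counted in hours from lights on), evenly spaced from ZT2 to ZT22. Mice labelled Bmal1 fl/fl (WT) carried floxed Bmal1, a core activator of the circadian clock, without Cre. Their Bmal1 fl/fl Albumin-Cre counterparts (LKO) lost it where the Albumin promoter drives Cre, which in the liver is mainly in hepatocytes. Both genotypes were kept either specific pathogen free (SPF), with gut microbes, or germ free (GF), in flexible film isolators, and all mice ate the same autoclaved chow ad libitum. The 4 conditions (WT and LKO mice, each SPF or GF) held 18 mice each, 3 at every ZT, for 72 libraries in all.

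MHC class I molecules show peptides from inside the cell to CD8 T cells, and almost every nucleated cell carries them. Peptides are cut by the proteasome, whose catalytic subunits can be exchanged for the interferon-inducible immunoproteasome subunits encoded by Psmb8, Psmb9 and Psmb10. The transporter made of Tap1 and Tap2 carries the peptides into the endoplasmic reticulum, where tapasin (Tapbp) holds the empty heavy chain, encoded by H2-K1 or H2-D1, beside the transporter until it is loaded. β2-microglobulin (B2m) is the invariant light chain that every such complex needs, and Nlrc5 is the transactivator that works at class I promoters. In liver, hepatocytes, Kupffer cells, endothelial cells and resident lymphocytes all carry class I, and in bulk tissue fewer cells of a type and less RNA per cell cannot be told apart.

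The promoters of both heavy chain genes and of B2m are shown first, because these partners of 1 complex did not move together with genotype, and that of Psmb10 because it is the member with an E-box. RefSeq promoter entries on GRCm38.p6 (250 bases before to 50 after each start) matched 8 of the 10 members, Tap2 and Nlrc5 being those without. Capitals mark matches, on either strand, to short motifs: GGGGATTCC (kappaB), AGTGAAAC (interferon response), GAAANNGAA (a spaced interferon response form), TGACG (a cyclic AMP response element core), CCAAT and CACGTG (the E-box that Bmal1 and Clock can bind). The H2-K1 stretch lies at chr17:34000348-34000597 on the minus strand, the H2-D1 stretch at chr17:35262921-35262950 on the plus strand within an annotated untranslated region, the B2m stretch at chr2:122147437-122147686 on the plus strand and the Psmb10 stretch at chr8:105938445-105938642 on the minus strand, all written 5′ to 3′.
H2-K1: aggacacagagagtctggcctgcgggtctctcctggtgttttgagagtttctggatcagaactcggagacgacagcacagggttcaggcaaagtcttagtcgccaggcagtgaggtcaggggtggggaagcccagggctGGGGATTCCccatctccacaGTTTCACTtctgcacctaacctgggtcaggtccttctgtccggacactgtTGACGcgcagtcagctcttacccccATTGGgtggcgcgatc
H2-K1 upstream element, chr17:34000431-34000460: ctGGGGATTCCccatctccacaGTTTCACT
H2-D1 upstream element: ctGGGGATTCCccatctcctcaGTTTCACT
B2m: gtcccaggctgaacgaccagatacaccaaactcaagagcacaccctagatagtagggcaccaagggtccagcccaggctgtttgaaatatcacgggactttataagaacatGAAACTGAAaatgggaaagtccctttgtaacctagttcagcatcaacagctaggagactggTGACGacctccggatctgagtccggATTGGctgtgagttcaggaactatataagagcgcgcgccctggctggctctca
Psmb10: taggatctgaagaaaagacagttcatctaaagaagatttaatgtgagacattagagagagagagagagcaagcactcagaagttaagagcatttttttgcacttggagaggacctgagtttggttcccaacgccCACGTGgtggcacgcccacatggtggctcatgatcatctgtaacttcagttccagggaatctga
The upstream elements of the 2 heavy chain genes were identical at 29 of 30 bases and began at positions -113 and -173 relative to the RefSeq starts used. A second RefSeq entry of H2-K1 placed the kappaB match at -125 where the first had -111. The H2-D1 gene as counted starts at 35262730, so its element lies within the counted gene. GGGGATTCC was held by 0.213% of 32851 promoters and AGTGAAAC by 0.77%, and among the members both were held by H2-K1 and H2-D1 only. The spaced form GAAANNGAA, held by B2m, occurred in 7.13% of all promoters. TGACG occurred in 17.8% and was held by B2m, H2-K1, H2-D1, Tap1 and Psmb9, CCAAT occurred in 33.8% and was held by these genes and Tapbp, and no overlap lay between the marked matches. The E-box occurred in 6.02% of promoters and among the members in Psmb10 alone. These matches describe the letters of the windows and not bound sites.

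Libraries held 17369927 to 22076113 counts, and the members had from 92 (Tap2) to 42574 (B2m) counts in a library. Values below are CPM, the counts scaled to library size with TMM factors, and log2 fold changes ± SE with adjusted p values come from the quasi-likelihood test of edgeR with Benjamini-Hochberg adjustment over all genes tested, called under 0.05. Arntl (Bmal1) stayed between 7.06 and 16.8 CPM in LKO libraries without those doubted here, and went from 0.332 to 40.96 in WT libraries, where it is rhythmic. Npas2, a clock gene, gave 4 libraries cause for doubt together with Arntl: SPF LKO ZT14 replicate 2 (Npas2 0.22 CPM) and ZT18 replicate 1 (1.83 CPM) lay far below the 14.4 to 44.4 CPM of the other LKO libraries, and of the WT libraries, SPF WT ZT14 replicate 3 (Arntl 2.11 CPM) lay below and GF WT ZT6 replicate 3 (8.24 CPM) above the other mice of their ZT. These 4 were kept under their labels, and calls without them are given for the members but not for the other gene lists or the pair correlations. Hepatocyte markers were plentiful in every library (summed level at least 44086 CPM), while 13 of 14 T and NK cell markers and 5 of 6 B cell markers had a median under 1 CPM.

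Per length of annotated exons (RPKM), B2m was the most abundant member with 2040 ± 287 (SD, n = 72), followed by H2-K1 with 302 ± 74.7 and H2-D1 with 129 ± 27.9. Each of these stood above the next in 72 of 72 libraries. The exon length joins all annotated exons of a gene, overlapped bases included, and can exceed that of the transcript present. Levels per length, and ratios built on them, therefore compare genes only roughly, while the lengths are the same in every condition. Psmb10 (16.9 ± 5.10) and Tapbp (16.5 ± 3.44) could not be ordered, since Tapbp was the higher in 36 of 72 libraries. Psmb8 (5.78 ± 1.60) lay below both in every library and above Psmb9 (3.73 ± 1.31) in every library, and Psmb9 lay above Tap1 (2.71 ± 1.06) in 68 of 72. The transporter subunits Tap1 and Tap2 (2.52 ± 0.594) stood close together, Tap1 being the higher in 43 of 72 libraries, and Nlrc5 was lowest with 1.58 ± 0.711. The heavy and light chains had at least 4361 counts in every library, while the lowest library held 92 counts for Tap2 and Nlrc5, so the latter are less precisely measured.

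**Figure D1:**
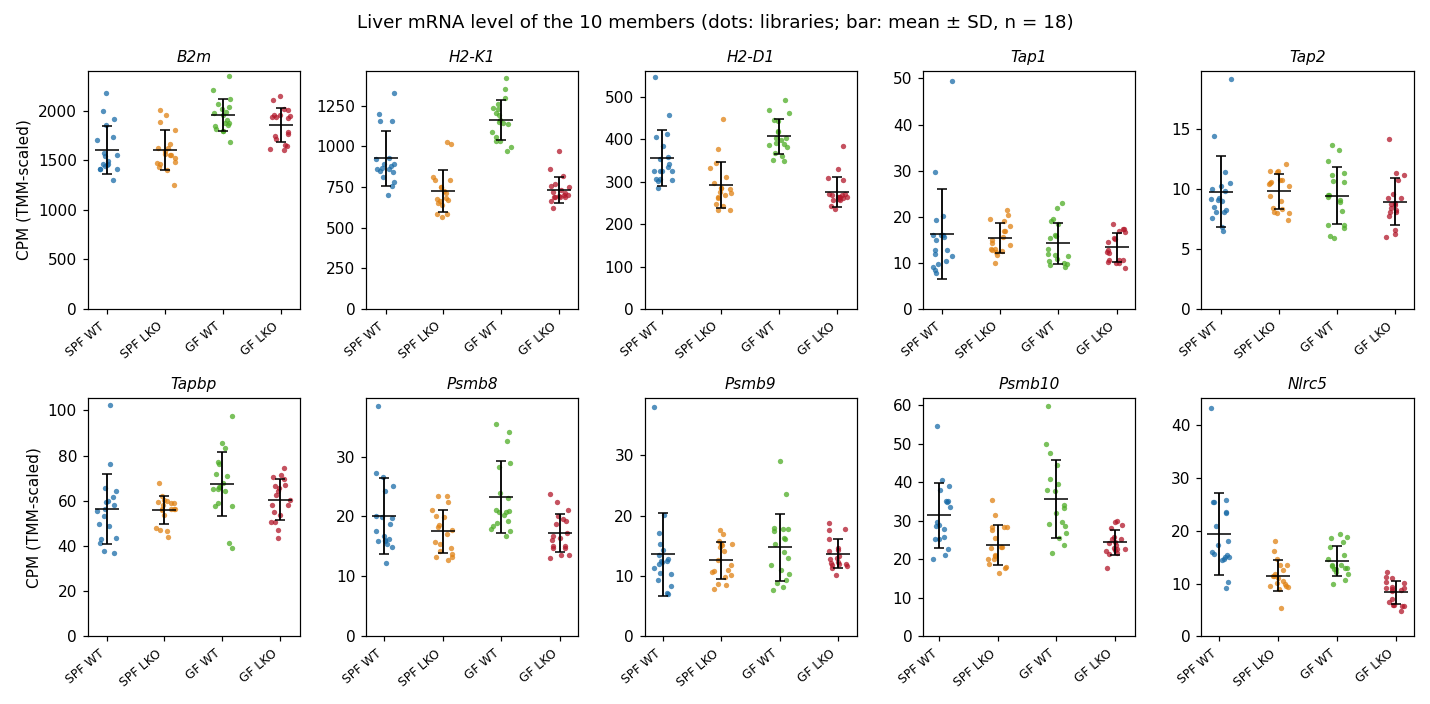
CPM of each member (linear axes from 0) in the 18 libraries of each condition, with bars for the mean ± SD. H2-K1 and H2-D1 sit lowest in both LKO conditions, B2m sits higher in both GF conditions, and a single SPF WT library stands at the top for most members.

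The comparison of LKO with WT mice asked what loss of the hepatocyte clock does to the route. Both heavy chains, Nlrc5 and Psmb10 were lower in LKO mice with or without gut microbes, Psmb8 was lower in LKO mice without them, and B2m was not called. In SPF mice 4 of the 10 members were lower and 0 higher, where 23.1% of all 13159 genes tested were called in either direction. In GF mice 5 of 10 were lower and 0 higher, where 30.8% of 12662 genes were called. The median log2 fold change over the 10 members was -0.16 in SPF and -0.28 in GF mice, beside -0.0054 and 0.0082 over all genes tested. The same 4 and the same 5 members were called without the 4 doubted libraries, and the same 4 in SPF mice without the high libraries SPF WT ZT6 and ZT14 replicate 3.

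H2-K1 (chromosome 17, 33996017 to 34000347, minus strand) encodes the K heavy chain. Over GF WT libraries it ran from 972 to 1421 CPM (median 1158, mean 1164 ± 123 SD, n = 18). Over GF LKO libraries it ran from 623 to 970 CPM (median 707, mean 734 ± 80.7 SD, n = 18). All 18 GF LKO libraries thus lay below the lowest GF WT library, and the 3 mice of either genotype did not overlap at any of the 6 ZT. The difference was -0.66 ± 0.051 on the log2 scale (adjusted p = 2.21e-13), or 0.634-fold, and by ZT the ratio of means ran from 0.578 at ZT10 to 0.687 at ZT6. In SPF mice H2-K1 ran from 700 to 1325 CPM in WT (median 870, mean 926 ± 168) and from 564 to 1027 CPM in LKO (median 696, mean 728 ± 129). These ranges overlapped, with 9 of 18 SPF LKO libraries below the lowest WT library, and the LKO mean was the lower at 6 of 6 ZT. The difference was -0.35 ± 0.080 (adjusted p = 0.00114), and the highest SPF LKO values, 1027 and 1012 CPM, belonged to the 2 libraries that went against that label. Without the 4 doubted libraries it was -0.41 (adjusted p = 3.20e-05).

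H2-D1 (chromosome 17, 35262730 to 35267499, plus strand), which encodes the D heavy chain, moved alike. It ran from 349 to 492 CPM over GF WT libraries (median 399.5, mean 407 ± 41.4 SD, n = 18). Over GF LKO libraries it ran from 235 to 384 CPM (median 264, mean 276 ± 35.4), and 17 of 18 lay below the lowest GF WT value, the exception being GF LKO ZT22 replicate 1. The log2 difference was -0.55 ± 0.054 (adjusted p = 8.8e-11), and the genotypes did not overlap at any of the 6 ZT. In SPF mice H2-D1 ran from 284 to 545 CPM in WT (median 329.5) and from 232 to 446 CPM in LKO (median 279), with 10 of 18 LKO libraries below the lowest WT library. The difference there was -0.29 ± 0.081 (adjusted p = 0.00832). Leaving out replicate 3 at every ZT ended the calls on H2-K1, H2-D1 and Psmb10 in SPF mice (adjusted p = 0.0755, 0.179 and 0.143), with the direction the same, and that on H2-D1 was also lost without ZT6 (adjusted p = 0.0648) or ZT22 (adjusted p = 0.0502). H2-K1 and H2-D1 shared 9.63% and 12.8% of their 50-base stretches with other genes, H2-Q7 among them, so reads lying within these stretches were not counted and the levels rest on the remainder.

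B2m (chromosome 2, 122147686 to 122153083, plus strand), the light chain, had 1300 to 2175 CPM in SPF WT (median 1514) and 1252 to 2002 CPM in SPF LKO libraries (median 1560). GF WT libraries had 1684 to 2346 CPM (median 1931) and GF LKO libraries 1601 to 2144 CPM (median 1929). The ranges of the genotypes overlapped in either setting. The differences were -0.0061 ± 0.065 in the SPF (adjusted p = 0.961) and -0.064 ± 0.045 in the GF setting (adjusted p = 0.308), and the former changed sign under 6 of 18 alternatives. Per length, H2-K1 and H2-D1 together came to 24.4% ± 3.75 of B2m in SPF WT and 24.6% ± 3.36 for GF WT libraries. In LKO mice the ratio was 19.5% ± 3.39 (SPF) and 16.7% ± 2.52 (GF, SD, n = 18 each), a description chosen after the values were seen and not tested.

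Nlrc5 (chromosome 8, 94434356 to 94527272, plus strand), the class I transactivator, ran from 9.07 to 43.2 CPM over SPF WT libraries (median 16.7) and from 5.37 to 17.99 CPM in SPF LKO libraries (median 11.2). In GF WT libraries it ran from 9.85 to 19.4 CPM (median 13.4) and in GF LKO libraries from 4.75 to 12.1 CPM (median 8.91). The LKO values were the lower at 5 of 6 ZT in SPF mice and at 6 of 6 in GF mice, where 13 of 18 GF LKO libraries lay below the lowest GF WT library. The log2 differences were -0.76 ± 0.15 (adjusted p = 0.000214) for SPF and -0.77 ± 0.11 (adjusted p = 5.84e-07) in GF mice. Nlrc5 passed the threshold in either setting under every alternative run, with log2 values from -0.89 to -0.57 in SPF mice.

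Of the immunoproteasome subunits, Psmb10 (chromosome 8, 105935735 to 105938444, minus strand), the MECL-1 subunit that takes the place of Psmb7, ran from 20.1 to 54.5 CPM in SPF WT (median 29.3) and from 16.4 to 35.3 in SPF LKO libraries (median 22.998). GF WT libraries had 21.5 to 59.6 CPM (median 33.8) and GF LKO libraries 17.7 to 29.96 (median 24.1), so the ranges overlapped although all 18 GF LKO libraries lay under the GF WT median. The log2 differences were -0.41 ± 0.11 (adjusted p = 0.00511) in SPF and -0.54 ± 0.10 (adjusted p = 4.52e-05) in GF mice. Psmb8 (chromosome 17, 34197721 to 34201454, plus strand), the LMP7 subunit, ran from 16.8 to 35.5 CPM in GF WT (median 20.8) and from 13.02 to 23.7 CPM in GF LKO libraries (median 16.6). It was lower by 0.42 ± 0.099 in GF LKO mice (adjusted p = 0.00106) and by an uncalled 0.21 ± 0.12 in SPF LKO mice (adjusted p = 0.206). Psmb9 (chromosome 17, 34181987 to 34187764, minus strand), the LMP2 subunit, was not called in either setting (adjusted p = 0.647 and 0.619). The constitutive counterparts Psmb5, Psmb6 and Psmb7 were not called by genotype, with adjusted p values from 0.426 to 0.953. Per length, Psmb10 made up 35.3% ± 6.25 of Psmb10 plus Psmb7 in SPF WT and 35.003% ± 6.85 for GF WT libraries, against 29.3% ± 3.61 in SPF LKO and 26.7% ± 3.09 for GF LKO libraries (SD, n = 18). The share of Psmb8 in Psmb8 plus Psmb5 went from 12.8% ± 4.01 to 11.1% ± 1.59 in SPF and from 13.3% ± 2.84 to 9.99% ± 1.91 in GF mice. The share of Psmb9 in Psmb9 plus Psmb6 lay between 4.83% and 5.45% in all 4 conditions.

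The loading machinery showed no call by genotype. Tap1 (chromosome 17, 34187553 to 34197225, plus strand) had medians of 13.9 and 14.6 CPM in SPF WT and SPF LKO libraries and of 12.4 and 12.6 CPM in GF WT and GF LKO libraries. Its differences were -0.089 ± 0.17 in SPF and -0.087 ± 0.12 in GF mice (adjusted p = 0.762 and 0.645). Tap2 (34203527 to 34216321, plus strand) and Tapbp (33915899 to 33929292, plus strand), on the same chromosome, differed by -0.0023 ± 0.10 and -0.016 ± 0.092 in SPF mice and by -0.071 ± 0.11 and -0.15 ± 0.087 in GF mice. In SPF mice the sign of Tap1, Tap2, Tapbp and Psmb9 turned positive once both SPF WT libraries with high values (ZT6 and ZT14 replicate 3) were left out, so no direction is given for them. Exons of Tap1 and Psmb9 share 212 bases on opposite strands, and 18.5% of Tap2, 29.02% of Tapbp and 14.7% of Psmb8 exon bases overlap other annotated genes, where reads were not counted.

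**Figure D2:**
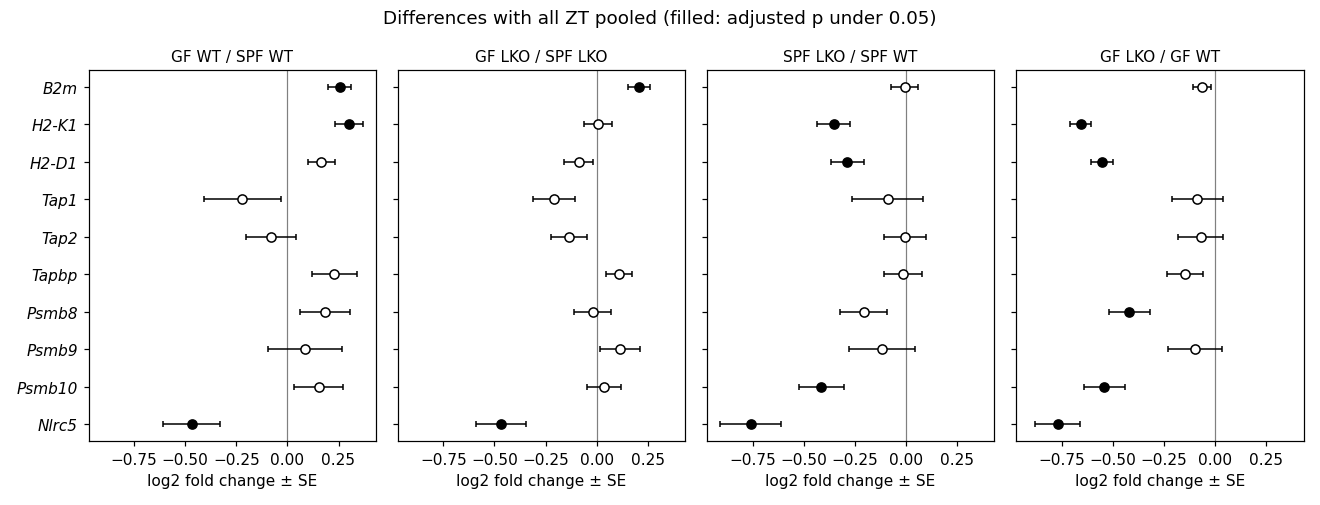
Log2 fold change ± SE of each member in the 4 comparisons with all ZT pooled (36 libraries each), filled where the adjusted p was under 0.05. H2-K1, H2-D1, Psmb10 and Nlrc5 lie left of 0 in both comparisons of genotype, and B2m lies right of 0 and Nlrc5 left of 0 in both comparisons of microbiota.

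The difference between these genotype effects was tested over all 72 libraries. No member was called, beside 0.438% of 13484 genes, and 876 genes had an unadjusted p under 0.05. H2-K1 came nearest, the genotype effect being further below 0 in GF than in SPF mice by 0.31 ± 0.095 (unadjusted p = 0.00163, adjusted p = 0.184), and H2-D1 followed with 0.27 ± 0.098 (unadjusted p = 0.00712, adjusted p = 0.377). These were the only members with an unadjusted p under 0.05, and DESeq2 also called 0 members. Without the 4 doubted libraries 0 members were called. H2-K1 passed the threshold without the SPF WT libraries of ZT6 and ZT14 replicate 3 (adjusted p = 0.0294) and without replicate 3 at every ZT (adjusted p = 0.0382). The genotype effects of the other 8 members differed by at most 0.22 on the log2 scale.

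The comparison of GF with SPF mice asked what gut microbes change within a genotype. Without microbes B2m was higher and Nlrc5 lower in both genotypes, and H2-K1 was higher in WT mice. In WT mice 3 of the 10 members were called, 2 higher and 1 lower, where 31.8% of 12776 genes were. In LKO mice 2 of 10 were called, where 36.4% of 13010 genes were, so neither share stood above the background. These comparisons use the same libraries as those of genotype, so the 4 sets of values are not independent.

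For B2m, all 18 GF WT libraries lay above the SPF WT median of 1514 CPM and all 18 GF LKO libraries above the SPF LKO median of 1560 CPM, although the full ranges overlapped. Means rose from 1604 ± 241 to 1953 ± 162 CPM in WT and from 1603 ± 199 to 1858 ± 171 CPM in LKO mice (SD, n = 18). The log2 differences were 0.26 ± 0.057 (adjusted p = 0.000819) and 0.21 ± 0.054 (adjusted p = 0.00288), with the GF mean the higher at 6 of 6 and 5 of 6 ZT. Nlrc5 was lower in GF mice by 0.47 ± 0.14 in WT (adjusted p = 0.00983) and by 0.47 ± 0.12 in LKO mice (adjusted p = 0.00298), and 17 of 18 GF LKO libraries lay below the SPF LKO median. The transactivator and the light chain thus moved in opposite directions. In WT mice the Nlrc5 call was lost under 3 alternatives: the difference was -0.31 without ZT6 (adjusted p = 0.0707), where SPF WT libraries reached 20.9, 25.5 and 43.2 CPM, -0.32 without replicate 3 (adjusted p = 0.089), and -0.29 without both high SPF WT libraries and the 4 doubted ones (adjusted p = 0.0596). Without replicate 2 at every ZT, B2m was not called in WT (0.21, adjusted p = 0.0592) or LKO mice (0.16, adjusted p = 0.115), nor was Nlrc5 in LKO mice (-0.39, adjusted p = 0.0571).

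H2-K1 rose in GF WT mice by 0.30 ± 0.067 (adjusted p = 0.000815), and all 18 GF WT libraries lay above the SPF WT median of 870 CPM. Without replicate 2 at every ZT it was 0.25 (adjusted p = 0.0829). In LKO mice it had 728 ± 129 CPM with and 734 ± 80.7 CPM without microbes, a difference of 0.0074 ± 0.067 (adjusted p = 0.942). H2-D1 differed by 0.17 ± 0.066 in WT (adjusted p = 0.0516) and by -0.087 ± 0.071 in LKO mice (adjusted p = 0.356). The call on H2-D1 in WT mice changed with single libraries and tools: DESeq2 called it (adjusted p = 0.03), and so did the fit without any of 13 single libraries (SPF WT ZT6 replicates 2 and 3, ZT14 replicate 3, ZT18 replicate 3 and ZT22 replicate 1, and GF WT ZT2 replicates 1 and 3, ZT6 replicate 3, ZT14 replicate 3, ZT18 replicates 1 and 2 and ZT22 replicates 1 and 3). Without SPF WT ZT6 replicate 3, or without GF WT ZT2 replicate 1, 5 members were called (H2-D1 and Tapbp in addition), and without both high SPF WT libraries 6 were, Psmb8 being the further one. Without the 4 doubted libraries 5 members were called in WT mice, and without the 2 doubted SPF LKO libraries 3 were in LKO mice, Tap1 being added there (-0.26, adjusted p = 0.045). Tapbp and the members of the immunoproteasome and the transporter were not called in either genotype with all libraries, with adjusted p values from 0.107 to 0.885.

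The library labelled SPF WT ZT6 replicate 3 stood apart. It held 49.5 CPM of Tap1 beside 15.7 and 12.8 in the other SPF WT libraries of that ZT, 37.9 of Psmb9 beside 12.9 and 10.6, 43.2 of Nlrc5 beside 20.9 and 25.5, and 545 of H2-D1 beside 357 and 383. It was the highest SPF WT library for 9 of the 10 members, the exception being B2m. Averaged over the members, its deviation from the mean of its condition and ZT was 2.45 SD, followed by 1.51 SD in SPF WT ZT14 replicate 3. The same library was also the highest of the 18 SPF WT libraries for the summed MHC class II genes (675 CPM, median 172), T and NK cell markers (48.7, median 7.12), Kupffer cell and macrophage markers (752, median 397) and interferon γ-induced GTPases and chemokines (2209, median 621). The part of these cells or genes in the member values was not tested.

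Over the day, 4 of the 10 members (Psmb9, Psmb10, Tap1 and Nlrc5) followed a 24 h cosine in at least 1 condition. In SPF WT mice 2 of 10 were called rhythmic, where 16.9% of all genes were. In SPF LKO mice 3 of 10 were (24.5% of all genes), in GF WT mice 2 (29.4%) and in GF LKO mice 1 (38.6%). None of these shares stood clearly above the background, and H2-K1, H2-D1, Tapbp, Tap2 and Psmb8 were called in none of the 4 conditions.

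Psmb10 was called in 3 of the 4 conditions. In GF WT mice its mean went from 26.4 ± 2.39 CPM at ZT2 to 46.1 ± 12.8 at ZT10 and back to 26.8 ± 6.03 at ZT22 (SD, n = 3), with single values of 34.2, 44.5 and 59.6 CPM at ZT10. The fitted peak lay at ZT11.7 with a peak-to-trough log2 difference of 0.86 (adjusted p = 0.00186). In SPF WT mice the peak lay at ZT9.38 (0.73, adjusted p = 0.0198) and in SPF LKO mice at ZT11.9 (0.56, adjusted p = 0.0364), so that all 3 fell late in the light phase. In GF LKO mice the means lay between 21.7 and 27.2 CPM, and the fit gave 0.12 (adjusted p = 0.702). The difference in rhythm between GF LKO and GF WT mice was not called (adjusted p = 0.0682, where 6.38% of genes were called), although DESeq2 called it (adjusted p = 0.0383) and so did the fit with no filter on low counts (adjusted p = 0.0327).

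Psmb9 was called in 3 conditions as well. In GF WT mice it was highest at ZT10, with 23.5 ± 5.52 CPM against 10.7 ± 3.97 at ZT18, and the fitted peak lay at ZT9.48 (0.94, adjusted p = 0.021). In LKO mice the peak lay earlier, at ZT5.19 in GF (0.53, adjusted p = 0.00283) and at ZT4.75 in SPF (0.67, adjusted p = 0.0228), with means at ZT6 of 17.6 ± 1.33 and 16.6 ± 1.14 CPM. The difference in rhythm between GF LKO and GF WT mice was not called (adjusted p = 0.134). Tap1, its neighbour on the chromosome, was called in SPF LKO mice only, with a peak at ZT2.63 (0.62, adjusted p = 0.0106) and means from 11.9 ± 1.59 CPM at ZT14 to 19.3 ± 1.18 at ZT6. Nlrc5 was called in SPF WT mice, with a peak at ZT6.18 (0.995, adjusted p = 0.0382) between 29.9 ± 11.8 CPM at ZT6 and 11.2 ± 2.80 at ZT18. That call was lost without the high library SPF WT ZT6 replicate 3 (adjusted p = 0.137) and without any of 9 other single libraries, and of the single libraries left out, SPF WT ZT22 replicate 2 ended the call on Psmb10 in SPF WT mice (adjusted p = 0.0531). With ZT as a factor neither was called. The 9 were ZT2 replicate 1, ZT6 replicate 2, ZT10 replicate 2, ZT14 replicates 1 and 2, ZT18 replicates 1, 2 and 3 and ZT22 replicate 2. The Nlrc5 call held without both high SPF WT libraries together. Without the doubted libraries Psmb9 was no longer called in SPF LKO mice (adjusted p = 0.0773), where Psmb8 was added, and Tap1 was added in GF WT mice (adjusted p = 0.0441). Each of the 8 calls of rhythm was lost without at least 1 of the 3 replicate numbers, that of Psmb10 in GF WT mice without replicate 2 (adjusted p = 0.0647).

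**Figure D3:**
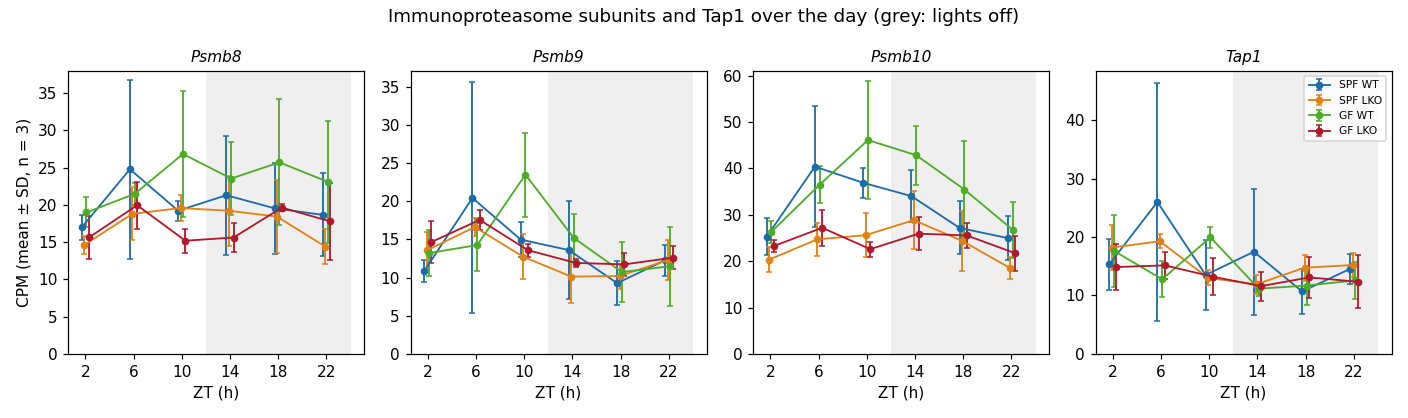
Mean CPM ± SD (n = 3) of Psmb8, Psmb9, Psmb10 and Tap1 by ZT in hours, a line for each condition, with the dark phase in grey. Psmb10 in GF WT mice rises to 46.1 at ZT10 while GF LKO means stay between 21.7 and 27.2, and the wide bars of SPF WT at ZT6 come from a single library.

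B2m was the 1 member called for a difference in rhythm between conditions by edgeR with the filter on low counts and all libraries. In LKO mice its fitted course differed between GF and SPF (adjusted p = 0.0247, where 5.34% of genes were called), although it was not called rhythmic in either (adjusted p = 0.069 and 0.0573). In SPF LKO mice it had 1773 ± 202 CPM at ZT10 and 1403 ± 152 at ZT22, with a fitted peak at ZT10.3 and 0.32 from peak to trough. In GF LKO mice it had 1642 ± 62.6 CPM at ZT10 and 2005 ± 91.8 at ZT22, with a fitted peak at ZT0.376 and 0.24 from peak to trough, so the order of these times was opposite. At ZT22 the 3 GF LKO libraries (1950, 1955 and 2111 CPM) lay above the 3 SPF LKO libraries (1252, 1400 and 1556), while at ZT10 the GF LKO mean was 0.926 times that of SPF LKO. The call held without any single library, without the 2 doubted SPF LKO libraries and with DESeq2, and was lost with no filter on low counts (adjusted p = 0.0761) and without any replicate number (adjusted p from 0.142 to 0.281). In the same test 4 of 11 Kupffer cell and macrophage markers, 3 of 9 endothelial and stellate cell markers and 2 of 8 hepatocyte markers were called. So were 3 of 11 constitutive proteasome and activator genes, and 0 of 6 MHC class II genes. The part of any of these cells or genes in the B2m result was not tested. Between GF and SPF mice of WT genotype no member differed in rhythm (0.047% of all genes called), nor between LKO and WT in SPF mice (1.12%), in either case by edgeR or DESeq2. For these, 0 members had an unadjusted p under 0.05.

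**Figure D4:**
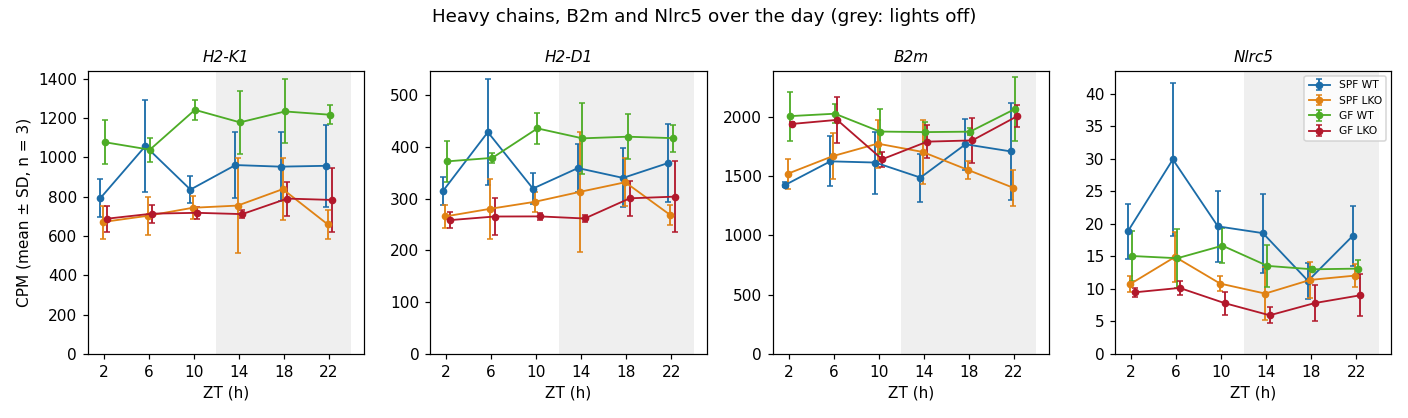
Mean CPM ± SD (n = 3) of H2-K1, H2-D1, B2m and Nlrc5 by ZT in hours, a line for each condition, with the dark phase in grey. H2-K1 in GF WT lies above GF LKO at all 6 ZT, and the B2m lines of SPF LKO and GF LKO are closest at ZT10 and ZT14 and farthest apart at ZT22.

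Beyond the conditions, most pairs of members varied alike from mouse to mouse. Each log2 CPM was taken as its deviation from the mean of its condition and ZT and correlated over the 72 libraries, a step added after values were seen. Of 45 pairs, 44 had a positive r and 41 had Benjamini-Hochberg adjusted permutation p values under 0.05 for both Pearson's r and Spearman's rho, and 31 were positive within each of the 4 conditions. The median r was 0.51. Pairs of other genes were not computed, so no background share stands beside these counts. The permutations shuffled all 72 libraries freely, although the deviations were centred within each condition and ZT, so the p values come out too small. H2-K1 and H2-D1 were closest (r = 0.94, rho = 0.92, permutation p = 1e-05, the smallest that the permutations can give, adjusted 1.73e-05 and 2.14e-05). Within conditions their r ran from 0.92 to 0.95, and it was 0.93 without the 2 libraries farthest from the median. Psmb8 and Psmb10 followed (r = 0.82, rho = 0.77, 0.80 without 2 libraries), then Tap2 and Tapbp (r = 0.81, rho = 0.81, 0.79), Tap1 and Tap2 (r = 0.81, rho = 0.78, 0.76) and Tap1 and Psmb9 (r = 0.79, rho = 0.73, 0.72), each with the same smallest permutation p. Within single conditions these last 4 pairs varied more, the lowest r being 0.32, 0.54, 0.36 and 0.53. B2m had the lowest values of all pairs: its r was 0.11 with Tap1, 0.029 with Tap2, 0.029 with Nlrc5 and -0.038 with Tapbp, with adjusted permutation p values for r from 0.363 to 0.813. With the heavy chains its r was 0.36 (H2-D1, adjusted permutation p = 0.00231) and 0.31 (H2-K1, 0.00902). Within single conditions the lowest r of these 2 pairs was -0.16 and -0.26. B2m went with immunoproteasome subunits (r = 0.60 with Psmb8 and rho = 0.61, r = 0.51 with Psmb9 and rho = 0.50, adjusted permutation p under the threshold for each).

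**Figure D5:**
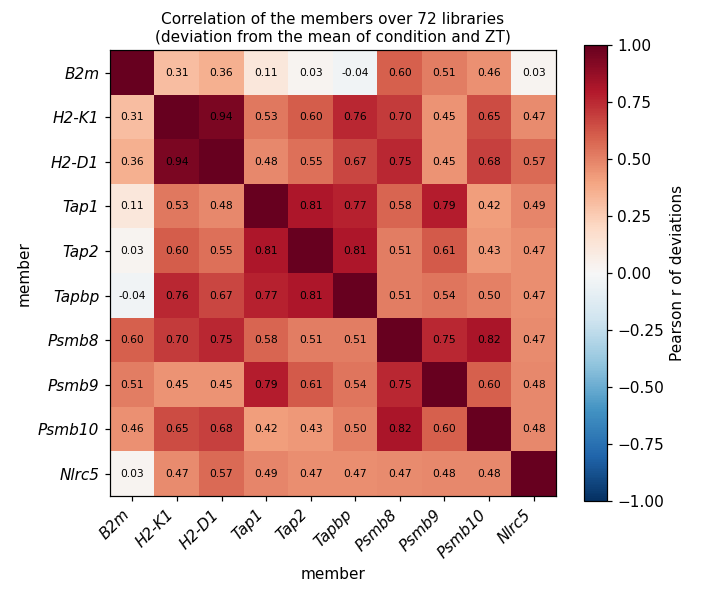
Pearson r between members over 72 libraries, each value being the deviation of log2 CPM from the mean of its condition and ZT. The highest value is that of H2-K1 with H2-D1 (0.94), and the lowest are those of B2m with Tap1, Tap2, Tapbp and Nlrc5 (-0.04 to 0.11).

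Of the 10700 genes averaging 1 or more on the log2 CPM scale, the 5 whose deviations went most closely with the mean standardised deviation of the members were H2-T23, a nonclassical class I gene (r = 0.85), Igtp, an interferon γ-induced GTPase (0.84), Cd74, the class II invariant chain (0.83), Gbp2, a further such GTPase (0.83), and H2-Ab1, a class II β chain (0.82). For H2-T23 the r within conditions lay between 0.84 and 0.88, while for Gbp2 it went from 0.41 in SPF LKO to 0.96 in SPF WT libraries. These values describe mouse-to-mouse likeness and carry no test.

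Other genes of the route and its controls were counted from lists, to be read against the share of all genes called: 23.1% (SPF) and 30.8% (GF) by genotype, and 31.8% (WT) and 36.4% (LKO) by microbiota. Of 15 other class I and class I-like heavy chain genes tested, 10 were lower and 1 higher with LKO genotype in the GF setting, and 5 were lower and 1 higher in the SPF setting. The largest differences in GF mice were those of H2-Q7 (-1.38 ± 0.15), H2-Q6 (-1.06 ± 0.14), H2-T10 (-0.75 ± 0.16) and H2-Q1 (-0.66 ± 0.15), members of a multigene family whose counts are uncertain where copies share sequence. In SPF mice H2-Q7 (-0.70 ± 0.15), H2-Q6 (-0.52 ± 0.15), H2-Q4 (-0.39 ± 0.11) and Fcgrt (-0.35 ± 0.06), the neonatal Fc receptor that also pairs with B2m, led. The median of this list was -0.25 in GF and -0.19 in SPF mice, below that of all genes tested (0.0082 and -0.0054). By microbiota, 5 of 15 were higher and 1 lower in WT mice and 4 were higher and 5 lower in LKO mice, with H2-T23 leading in WT mice (0.42 ± 0.07).

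Of 13 regulators of class I, 2 were called by genotype in SPF mice (15.4%), 1 lower and 1 higher. In GF mice 4 were called (30.8%), 2 lower and 2 higher, and both shares lay at or below those of all genes. Irf2, an interferon regulatory factor, was lower in LKO mice (-0.46 ± 0.08 in SPF, -0.54 ± 0.09 in GF, adjusted p = 6.21e-05 and 5.99e-06), and Rfxank, a subunit of the RFX complex that binds MHC promoters, was higher (0.98 ± 0.12 and 0.99 ± 0.12). Irf1, a further interferon regulatory factor, was lower in GF LKO mice (-0.41 ± 0.15, adjusted p = 0.0313). By microbiota, 4 of the 13 were called in WT mice (4 lower, 0 higher) and 4 in LKO mice (3 lower, 1 higher). Each share was 30.8%, below that of all genes. Among them, Irf2 was lower without microbes in both genotypes (-0.26 ± 0.09 and -0.33 ± 0.08), as was Ciita, the class II transactivator (-0.70 ± 0.27 and -0.68 ± 0.16).

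Of 11 constitutive proteasome and activator genes, 1 was called by genotype in either setting (lower each time), while 5 were higher and 0 lower in GF WT and 7 higher and 0 lower in GF LKO mice. Psme1, a subunit of the PA28 activator, was higher by 0.27 ± 0.06 in WT mice, and Pomp, which helps to assemble proteasomes, by 0.24 ± 0.06 in WT and 0.34 ± 0.07 in LKO mice. Of 10 loading, trimming and folding genes tested, 1 was lower in SPF LKO mice (Tapbpl, a tapasin relative, -0.26 ± 0.08), and in GF LKO mice 2 were lower (Tapbpl, -0.30 ± 0.05, and Erap1, the peptide-trimming aminopeptidase, -0.26 ± 0.05) and 2 higher. By microbiota 2 of these 10 were called in WT and 4 in LKO mice. Of 15 interferon γ-induced GTPases and chemokines tested, 7 were lower in SPF LKO and 6 in GF LKO mice and 0 higher in either, Igtp (-0.75 ± 0.25 and -0.84 ± 0.17) and Gbp2 (-0.89 ± 0.30 and -0.64 ± 0.17) among them. The summed level of all 16 listed had a median of 621 CPM in SPF WT and 599 in SPF LKO libraries. In GF mice the medians were 631 (WT) and 580 (LKO). The high library SPF WT ZT6 replicate 3 reached 2209 CPM, and the calls on this list were not repeated without it. Of 15 type I interferon-induced genes, 1 was lower and 1 higher in each setting, and of 9 interferon signalling genes 2 were lower and 1 higher in each.

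Markers of cell types were counted in the same way, beside the same 23.1% and 30.8% of all genes called by genotype. Of 6 MHC class II genes, 6 were lower in GF LKO mice (-0.52 to -0.32) and 0 were called in SPF LKO mice (median -0.47). Of 11 Kupffer cell and macrophage markers, 6 were lower in SPF LKO and 5 in GF LKO mice, and their summed level ran from 291 to 752 CPM in SPF WT, 271 to 440 in SPF LKO, 250 to 472 in GF WT and 198 to 413 in GF LKO libraries. Of 8 hepatocyte markers, Alb and Fabp1 were lower in both settings (Alb -0.98 ± 0.15 in SPF and -1.70 ± 0.07 in GF mice), Ttr lower in GF mice and Ass1 higher in both. The median log2 difference over the 8 was -0.059 in SPF and -0.080 in GF mice. Their summed level, which weighs genes by abundance, ran from 84566 to 137092 CPM in SPF WT and 44086 to 130440 in SPF LKO libraries (median 59676, the highest being the doubted ZT18 replicate 1). It ran from 117611 to 172755 in GF WT and 52924 to 74524 in GF LKO libraries. By microbiota, all 5 dendritic cell and granulocyte markers tested were lower in GF WT mice, as were 5 of 6 in GF LKO mice. Of 8 hepatocyte markers 6 were higher in GF WT mice, and 4 were higher and 1 lower in GF LKO mice. Of 11 Kupffer cell and macrophage markers 0 were called in WT mice and 2, both lower, in LKO mice. Of 6 MHC class II genes 0 were called in either genotype. Of all genes, 31.8% (WT) and 36.4% (LKO) were called. Of T and NK cell markers 1 of 5 was called by genotype in SPF mice (Ccl5, lower) and 0 of 4 in GF mice, of B cell markers 0 of 4 and 1 of 2, and of 9 endothelial and stellate cell markers 2 in either setting. The calls on these marker lists were not repeated without the high library SPF WT ZT6 replicate 3. The part of any of these cells in the member values was not tested.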

How the data were processed

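The values are raw gene counts that the authors deposited for 72 mouse livers. Per the paper's methods and the submitters' processing notes, the authors sequenced stranded mRNA libraries as single 50-base reads, aligned them to mm10 with STAR 2.6.1b and counted exon reads per gene of Ensembl release 97 with featureCounts 2.0.0. Reads that mapped to several places or genes were not counted, and the counting did not use strand. No column of the table was left unused (0).

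Counts were analysed with edgeR 4.0.16 in R 4.3.3 (TMM scaling, expression filter by condition, quasi-likelihood F test, Benjamini-Hochberg adjustment over all genes tested, threshold 0.05). The 4 comparisons of genotype or microbiota pooled all ZT (36 libraries each), the interaction used 72, and rhythm was a 24 h cosine and sine pair fitted within a condition or, as a difference, over 36 libraries. CPM use TMM factors computed over all genes and all 72 libraries, while each test computed its own after the filter from the libraries it used. A mouse is a replicate, as the labels number them. Figures and permutation tests (100000 draws, two-sided) used Python 3.11.15, scipy 1.17.1 and matplotlib 3.10.9.

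The members and lists were chosen with earlier results of these data known. All 10 members are named, as are Arntl and Npas2 and the 5 genes most like the members. Of the genes called in the other lists only a selection is named, at most 4 a list and comparison, and for several lists none. The named genes therefore do not stand for their list. Ratios, pair correlations and motifs were chosen after the values were seen, and so was leaving out single or high libraries. The other alternatives were DESeq2 1.42.0, its size factors, no filter on low counts, ZT as a factor, a replicate block, each replicate number or ZT left out, and the libraries against their labels left out. No 2 libraries held identical values (0 pairs). The scripts were tested on simulated counts. The result of 1 further motif searched is not reported here.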

Additional observations from a re-analysis of the deposited data

Results flagged for a closer look

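B2m, rhythm difference between GF and SPF mice of LKO genotype, is listed because its course over the day differed between the groups by a direct test (adjusted p = 0.0247, edgeR, 36 libraries). The SPF LKO mean was higher at ZT10 (1773 ± 202 CPM) than at ZT22 (1403 ± 152), and the GF LKO mean was lower at ZT10 (1642 ± 62.6) than at ZT22 (2005 ± 91.8). No other member met that criterion, and the cause was not tested.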

How the results depend on the processing

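All 5 calls by genotype in GF mice held under every alternative run. Members called by genotype or microbiota kept their direction under every alternative. The rhythm calls among the 23 called member results carry no sign, and their peak times were not compared between alternatives. Over 2470 member values, 2285 kept the side of the threshold and, where signed, the direction. A further 50 lost the call, 59 gained it and 76 changed sign, 0 of those 76 having been called. Tap2 and Nlrc5, with 92 counts in their lowest library, have the shallowest counts. Why a setting changed a call was not tested.

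Number of members called. In the comparison of GF with SPF mice of WT genotype it was 3, and became 5 without the 4 libraries against their labels, 6 without both high SPF WT libraries and 5 without all of these, and 1 to 5 without single replicates or libraries. In LKO mice it was 2 (0 to 3 without a replicate number). By genotype in SPF mice it was 4 (1 to 4). The interaction was 0, and 1 (H2-K1) without both high libraries (0 to 1). The rhythm in SPF WT was 2, and 0 with ZT as a factor (0 to 2 without replicates or single libraries). In SPF LKO it was 3, 6 with DESeq2 and 1 with ZT as a factor (0 to 1). In GF WT it was 2, and 1 with ZT as a factor (0 to 6). In GF LKO it was 1, and 3 with DESeq2, 2 with no filter and 3 with the replicate block (0 to 3). The rhythm difference between GF and SPF in LKO was 1, and 0 with no filter (0 to 2). That between LKO and WT in GF was 0, and 1 with DESeq2 and 1 with no filter, Psmb10 each time (0 to 2). The other 2 rhythm differences gave 0 throughout.

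Sign changes, all of uncalled members, in log2. GF against SPF in WT: Tap2 was 0.040 without ZT6 and Psmb9 -0.069 without ZT10. Without both high libraries Tap1 was 0.070 and Tap2 0.061, and without these and the 4 doubted libraries 0.098 and 0.083. Without replicates Psmb9 ran from -0.093 to 0.27, Tap1 from -0.38 to 0.040 and Tap2 from -0.21 to 0.11. GF against SPF in LKO: Psmb8 was 0.041 without the 2 doubted SPF LKO libraries, 0.051 without ZT10 and 0.029 without ZT14, and H2-K1 was -0.039 without ZT22. Without replicates H2-K1 ran from -0.050 to 0.065, Psmb8 from -0.10 to 0.083 and Psmb10 from -0.0024 to 0.10. Genotype in SPF: Tap2 was 0.0054 with no filter, and with ZT as a factor Tap2 was 0.0057 and Tapbp 0.0018. With the replicate block Tap1, Tap2 and Tapbp were 0.045, 0.031 and 0.022. Tap2 was 0.015 without the 2 and 0.055 without the 4 doubted libraries, when Tap1 was 0.028. Without ZT6 Tap1, Tap2 and Tapbp were 0.027, 0.053 and 0.082, Tap2 was 0.0063 without ZT10 and 0.050 without ZT14, Tapbp was 0.0075 without ZT14, and B2m was 0.032 without ZT18 and 0.050 without ZT22. Without both high libraries B2m, Tap1, Tap2, Tapbp and Psmb9 were 0.0018, 0.20, 0.14, 0.097 and 0.11, and without the doubted libraries as well 0.0034, 0.25, 0.16, 0.071 and 0.17. Without replicates B2m ran from -0.032 to 0.019, Tap1 from -0.26 to 0.21, Tap2 from -0.091 to 0.19, Tapbp from -0.12 to 0.13 and Psmb9 from -0.27 to 0.18. Genotype in GF: Tap1 was 0.035 and Psmb9 0.086 without ZT10, and without replicates Tap1 ran from -0.28 to 0.023 and Tap2 from -0.24 to 0.074. Interaction: Tap1 was 0.00062 with DESeq2, 0.00049 with its size factors, and 0.11, 0.12, 0.039 and 0.0089 without ZT2, ZT10, ZT18 and ZT22. Psmb9 was -0.023 with the replicate block, -0.047 without 2 and -0.11 without 4 doubted libraries, -0.15 without ZT6, -0.0086 without ZT22, -0.21 without both high libraries and -0.29 without the doubted ones too. Nlrc5 was 0.021 without 2 doubted libraries and 0.030, 0.014 and 0.093 without ZT10, ZT14 and ZT18. Without replicates Tap1 ran from -0.22 to 0.20, Tap2 from -0.25 to 0.16, Tapbp from -0.26 to 0.055, Nlrc5 from -0.19 to 0.14 and Psmb9 from -0.24 to 0.16.

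Replicate numbers did not pair the mice: of 18 same-numbered pairs in each comparison, 3 to 6 had a correlation of deviations over 0.1, and 3 to 7 went best with their own number. With the replicate block 4 members were called for GF against SPF in WT (H2-D1 added), 4 for the rhythm in SPF LKO and 3 for that in GF LKO.

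Genes called over the whole table moved by over 1.5 times in these cases. GF against SPF went from 4069 to 1674 and 2608 in WT and from 4741 to 2431 and 3088 in LKO without replicates 2 and 3. Genotype in SPF went from 3043 to 1711 and 1586 without replicates 1 and 3. The interaction went from 59 to 13 to 25 without a replicate number, 32 to 36 without a ZT and 35 without 2 doubted libraries. Rhythm went from 2041 to 492 to 1104 in SPF WT, 3014 to 564 to 988 in SPF LKO, 3429 to 1367 and 1533 in GF WT and 4591 to 2069 to 2900 in GF LKO without replicate numbers, and to 990, 787 and 1729 in the first 3 with ZT as a factor. The rhythm difference between GF and SPF went in WT from 6 to 45 (DESeq2), 62 (no filter), 0 (each replicate number), 10 (4 doubted libraries) and 11 (high libraries too), and in LKO from 695 to 1098 (DESeq2), 0 to 12 (replicate numbers), 399 (2 doubted libraries) and 331 to 1183 (11 single libraries). That between LKO and WT went in SPF from 148 to 294 (DESeq2), 246 (no filter), 1 to 62 (replicate numbers), 261 and 364 (2 and 4 doubted libraries) and 349 (high libraries too), and in GF from 808 to 253 and 231 (replicates 1 and 2).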
